A study of Mus musculus with 4 samples.

Results

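The genes described here are the TGF-beta ligands, receptors and latent-binding proteins of mouse kidney ureteric buds, with a matrix protein, an activator and a nuclear inhibitor of the same pathway. They were 10 named genes (Tgfb1, Tgfb2, Tgfb3, Tgfbr1, Tgfbr2, Ltbp1, Ltbp2, Tgfbi, Thbs1 and Skil), of 17305 genes whose names the array's accessions gave. The choice was by symbol and not by a cut on values, but was made with earlier results of these data known. The 10 genes were read by 16 probes, of which all 16 passed the filter on dim probes, and every probe is given. The RNA came from intact ureteric buds, the epithelial outgrowths that form the collecting duct tree, held in a matrix gel under DMEM/F12 that held GDNF and HGF at 100 ng/ml each beside 10% fetal bovine serum. AngII buds had angiotensin II, the active peptide hormone of the renin-angiotensin system, at 1e-05 M for 6 h, and media buds had medium alone for the same 6 h. Serum, GDNF and HGF were thus shared by both groups, and the labels name no strain, age, animal or culture. AngII and media RNA, each numbered 1 and 2, were set against each other on 4 two-colour arrays of 1 slide, 2 arrays with AngII in the red dye Cy5 and 2 with the dyes swapped.

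TGF-beta is secreted as a latent complex in which a propeptide holds the ligand dimer and a latent TGF-beta binding protein can tether it to the matrix. Once released, for example by integrins or by thrombospondin, the ligand joins the type II receptor with the type I receptor, which phosphorylates SMAD2 and SMAD3. These enter the nucleus with SMAD4 and drive target genes, while SnoN (the product of Skil) holds SMAD targets down and is itself a target. In the kidney the pathway is known for restraining ureteric branching and for matrix deposition in fibrosis, and angiotensin II is a known inducer of Tgfb1 in renal cells.

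The results turn on Tgfb1 and Ltbp2, which were higher under AngII, and on Tgfb2 and Tgfbr2, which were lower, so the DNA just before the annotated start of these 4 genes is shown. Each sequence is the 250 bases before the start on the gene's own strand, 5′ to 3′, from RefSeq on GRCm38.p6, and capitals mark 3 motifs on either strand: the GC box GGGCGG, the SMAD box CAGAC and the TATA box TATAAA. No base lies in more than 1 of these motifs.
Tgfb1, chr7:25686752-25687001, plus strand: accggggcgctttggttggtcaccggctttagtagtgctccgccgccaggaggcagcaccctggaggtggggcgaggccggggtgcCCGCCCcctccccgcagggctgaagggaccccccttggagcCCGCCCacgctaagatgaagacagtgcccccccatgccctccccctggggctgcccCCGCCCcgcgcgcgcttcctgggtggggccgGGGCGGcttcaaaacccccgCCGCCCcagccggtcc
Ltbp2, chr12:84876492-84876741, minus strand: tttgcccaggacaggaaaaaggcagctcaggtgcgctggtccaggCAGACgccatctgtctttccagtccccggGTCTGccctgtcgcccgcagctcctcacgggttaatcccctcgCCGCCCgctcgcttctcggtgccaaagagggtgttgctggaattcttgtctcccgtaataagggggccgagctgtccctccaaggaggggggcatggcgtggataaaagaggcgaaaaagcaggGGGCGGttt
Tgfb2, chr1:186705990-186706239, minus strand: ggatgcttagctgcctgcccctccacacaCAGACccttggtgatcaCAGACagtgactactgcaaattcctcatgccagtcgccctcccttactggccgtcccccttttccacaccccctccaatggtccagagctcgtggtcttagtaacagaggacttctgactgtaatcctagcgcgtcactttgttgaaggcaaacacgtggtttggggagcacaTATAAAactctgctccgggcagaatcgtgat
Tgfbr2, chr9:116175364-116175613, minus strand: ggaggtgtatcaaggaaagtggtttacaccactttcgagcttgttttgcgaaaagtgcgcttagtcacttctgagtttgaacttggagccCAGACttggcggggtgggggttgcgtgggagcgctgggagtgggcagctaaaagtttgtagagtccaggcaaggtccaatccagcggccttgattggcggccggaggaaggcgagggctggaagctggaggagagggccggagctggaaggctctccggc

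The Tgfb1 window held 5 GC boxes and no TATA box, and 75.2% of its bases were G or C. The Tgfb2 window, with 53.6% G or C, held 1 TATA box, which began 31 bases before the start, and no GC box. Ltbp2 had 2 GC boxes and 2 SMAD boxes, in a window that overlaps the locus D030025P21Rik, and Tgfbr2 had 1 SMAD box. RefSeq windows were at hand for 7 of the 10 genes, 9 windows in all since Tgfbr1 and Ltbp1 have 2 each. A GC box was in 4 of these 9 and in 32.7% of 32817 windows of the same length over the genome, a TATA box in 1 of 9 and in 12.4%, and a SMAD box in 7 of 9 and in 42.2%. The palindromic SMAD element GTCTAGAC and the AP-1 site TGANTCA, searched on both strands too, were in none of the 9, against 0.168% and 6.75% of all windows. A match describes letters only, and a missing match says nothing of a factor.

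Of 41174 probes, 19028 to 21922 were well above background, depending on the channel and array, and 19393 probes entered the test. The ratios of replicate numbers 1 and 2 differed by no more than the array noise: the SD over probes of their half-difference was 0.0381 on the log2 scale, against 0.0376 for a contrast of array noise alone, and with limma 0 probes differed between the numbers at an adjusted p under 0.05 (967 at an unadjusted p under 0.05). They were therefore counted as 1 pair of RNA samples, so no p-value from limma tells how cultures vary. In the main limma fit the dye orientations are averaged before the error is taken. Its SE and p-values thus leave out the difference between orientations. That SE is moderated over all probes, 0.04 at every member probe, and is not the spread of a single gene over the arrays. The dye orientations differed more, with an SD of 0.164 by the same measure. Log2 ratios correlated across probes at 0.960 and 0.971 between arrays of the same orientation but at 0.656 to 0.666 between orientations, a description in which probes are not independent. For that reason the value on each array is given in a fixed order: AngII in Cy5 replicate 1, AngII in Cy5 replicate 2, AngII in Cy3 replicate 1, AngII in Cy3 replicate 2. A ratio is always AngII over media, and a value of 0 means equal signal. A gene with more probes is counted by its brightest, called probe 1, and "passed" means an adjusted p under 0.05 in limma over all 19393 probes.

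Under AngII 6 of the 10 genes were higher past the threshold (Tgfb1, Tgfb3, Tgfbr1, Ltbp2, Tgfbi and Skil), 2 were lower (Tgfb2 and Tgfbr2) and 2 did not pass (Ltbp1 and Thbs1). Over all 15004 features, each by its brightest probe, 77.0% passed, 39.0% higher and 38.0% lower, so 8 of 10 is near the share of the whole array. Passing with the same sign on all 4 arrays held for 6 of 10 members, against 57.7% of all features. By size, 2 of 10 members (Ltbp2 and Tgfb1) differed at least 1.5-fold, against 10.9%. Of the members past that line Tgfb1 was the nearer to it, at a log2 ratio of 0.75, and Tgfb3, at 0.58, and Tgfbr2, at -0.58, lay just short of it. The median log2 ratio of the 10 members was 0.27, against 1.8e-05 over all features, and their median size regardless of sign was 0.42, against 0.19. With the replicate block, a fit to the 4 arrays whose error also takes in the difference between dye orientations, 6 of 10 members passed, against 30.7% of all features. These 6 were Tgfb1, Tgfb2, Tgfb3, Tgfbr2, Ltbp2 and Skil. Counted by probe, 7 of the 16 were higher and 5 lower, against 76.2% of all tested probes passing. Of the 16, 9 passed with the same sign on all 4 arrays, against 56.7%. At least 1.5-fold differed 3, against 10.2%, and 7 passed with the replicate block, against 29.7%. The dimmer Ltbp1 probe, called higher, met the filter through the AngII channel only. The dimmest Thbs1 probe, called lower, met it through the media channel only. The filter thus favoured the direction of these calls.

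**Figure D1:**
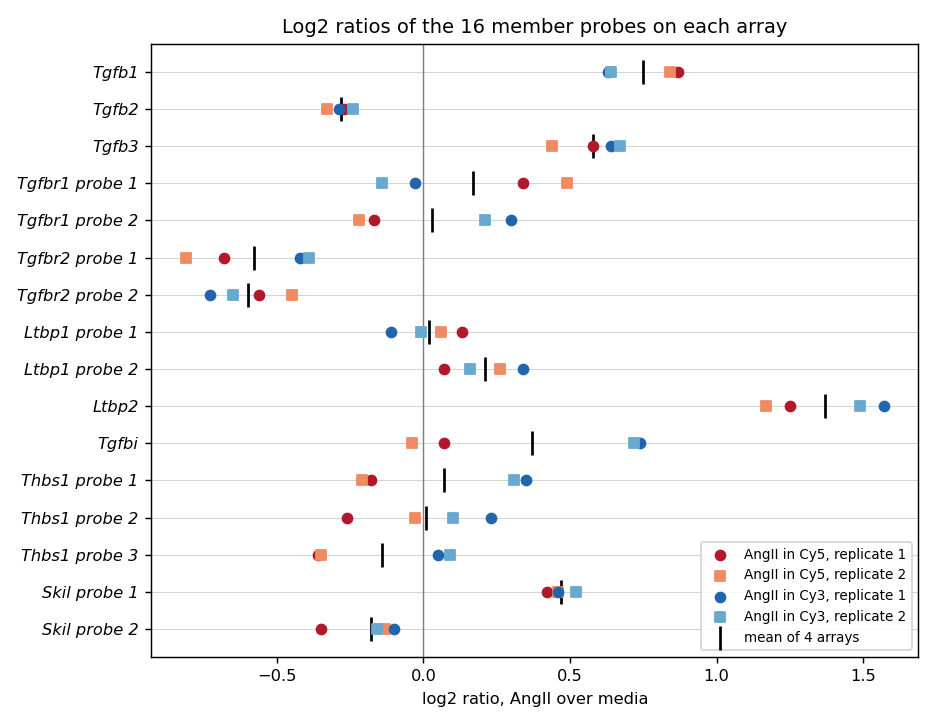
Log2 ratio of AngII over media (horizontal axis) of each of the 16 probes on each of the 4 arrays (coloured points: red shades for AngII in Cy5, blue shades for AngII in Cy3), with black bars for the mean of the arrays. Ltbp2 lies farthest to the right, between 1.17 and 1.57, Tgfb1 and Tgfb3 lie to the right of 0 on all 4 arrays, both Tgfbr2 probes lie to the left, and the red and blue points of Tgfbr1, Tgfbi and Thbs1 stand apart.

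The 3 ligand genes did not move together. Tgfb1 and Tgfb3 were higher under AngII, by 1.68-fold and by a log2 ratio of 0.58, while Tgfb2 was lower, by 1.22-fold. All 3 isoforms signal through the same receptors, and Tgfb2 differs from the others in needing the co-receptor betaglycan to bind the type II receptor well.

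Tgfb1, the isoform most studied in renal fibrosis, had normalised log2 intensities of 8.01, 7.94, 7.78 and 7.73 in the AngII channel and 7.14, 7.11, 7.15 and 7.09 in the media channel. Every AngII value was above every media value, and the media values were nearly level over the arrays. Its log2 ratios were 0.87, 0.84, 0.63 and 0.64, with a mean of 0.75 (SE 0.04, limma adjusted p = 1e-21). The arrays with AngII in Cy5 gave the higher pair of values (limma adjusted p = 0.0112 for the difference between orientations). Its probe is printed at 10 spots of each array, of which 8 to 10 were free of outlier flags. The SD over these spots was 0.1, 0.06, 0.1 and 0.07 on the arrays in the same order, and the lowest single spot of any array had a log2 ratio of 0.50. Of all tested probes, 97.6% had a lower ratio than Tgfb1. With Agilent's processed signals its log2 ratio was larger, 1.23.

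Tgfb2 had AngII intensities of 7.38, 7.33, 6.72 and 7.07 and media intensities of 7.65, 7.66, 7.01 and 7.31. The arrays differed in level, so the groups overlapped as channels, but AngII was the lower channel within each array. Its log2 ratios were -0.27, -0.33, -0.29 and -0.24, a narrow range around the mean of -0.28 (SE 0.04, limma adjusted p = 2.24e-09). The orientations did not differ past the threshold for this probe (limma adjusted p = 0.628). It was a modest change among all probes, 65.3% of which had a smaller ratio regardless of sign. With processed signals it was -0.48.

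Tgfb3 was the brighter probe, with AngII intensities of 11.03, 11.18, 11.07 and 10.95 and media intensities of 10.45, 10.75, 10.43 and 10.28. The lowest AngII value was above the highest media value. Its log2 ratios were 0.58, 0.44, 0.64 and 0.67, with a mean of 0.58 (SE 0.04, limma adjusted p = 4.05e-18), and 95.1% of tested probes had a lower ratio. Within each array the Tgfb1 ratio exceeded the Tgfb2 ratio by 0.88 to 1.17 and the Tgfb3 ratio exceeded it by 0.77 to 0.94. Tgfb1 exceeded Tgfb3 by 0.29 and 0.40 with AngII in Cy5 but differed from it by -0.01 and -0.02 with AngII in Cy3, so these ligands are not ordered by their change.

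Erythroid markers were higher on the same arrays. The normalised intensities of 8 tested erythroid markers summed to between 32300 and 39900 in the AngII channels and 6040 and 7170 in the media channels, and 7 of the 8 were higher, also with the replicate block (their listing was made with their rise in these data known). For 8 tested leukocyte and macrophage markers the sums ran from 912 to 976 under AngII and from 833 to 882 in media, with 3 higher (Ptprc, Cd74 and Tyrobp) and 4 lower (C1qa, C1qb, Csf1r and Fcer1g), while Lyz2 and Laptm5 were not well above background. With the replicate block the same 3 were higher and 0 were lower, with adjusted p of 0.12 to 0.29 for the 4. For 4 tested platelet markers the sums ran from 424 to 432 and from 392 to 424, with log2 ratios of 0.27 for Ppbp, 0.12 for Treml1, 0.08 for Pf4 and -0.20 for Gp1bb. None of these 4 passed with the replicate block (limma adjusted p from 0.0587 to 0.534), and the defining markers Itga2b and Gp9 were not well above background. The tested leukocyte markers were dim, with mean log2 intensities from 6.44 (C1qa) to 7.31 (Cd74), as were the platelet markers, from 6.34 (Treml1) to 7.04 (Ppbp). Sums over probes this dim hold background signal too, so they do not measure the content of such cells. The part of erythroid, leukocyte and platelet cells in the Tgfb1 ratio was not tested. In tissue RNA, fewer cells of a type and less RNA per cell cannot be told apart.

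**Figure D2:**
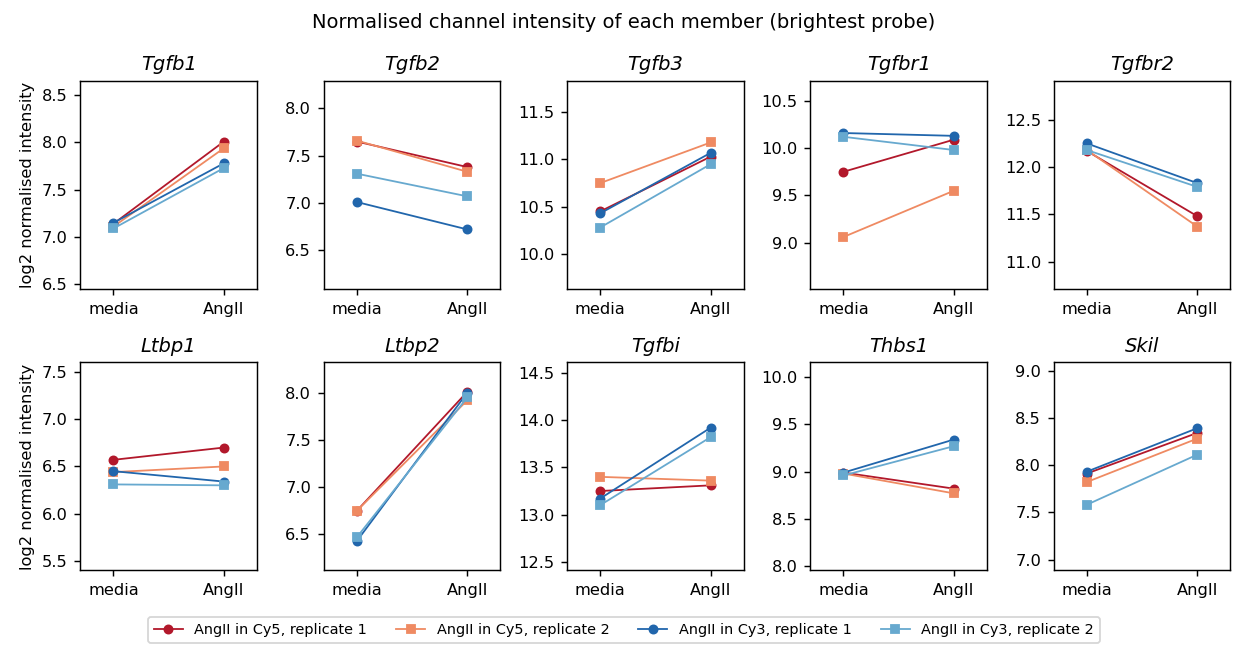
Normalised log2 intensity (vertical axes, each spanning the same number of units) of the media and AngII channels of each array, joined by a line, for the brightest probe of each member. Lines rise on all 4 arrays for Tgfb1, Tgfb3, Ltbp2 and Skil and fall on all 4 for Tgfb2 and Tgfbr2, while for Tgfbr1, Tgfbi and Thbs1 the red and blue lines have different slopes; levels are not comparable between genes.

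Of the receptor genes, Tgfbr2 was lower under AngII at both of its probes, which were designed to different RefSeq transcripts of the gene, and Tgfbr1 had no direction that both orientations shared. Tgfbr2 encodes the type II receptor, the kinase that binds the ligand first. Its brighter probe had AngII intensities of 11.48, 11.37, 11.83 and 11.79 and media intensities of 12.17, 12.18, 12.25 and 12.18. AngII values were all below media values, and the media values spread by less than the AngII values. The log2 ratios were -0.68, -0.81, -0.42 and -0.39, with a mean of -0.58 (SE 0.04, limma adjusted p = 5.05e-18). The second probe, much dimmer, had -0.56, -0.45, -0.73 and -0.65, with a mean of -0.60 (limma adjusted p = 2.47e-18). The probes gave nearly the same mean although the orientations ranked oppositely in them, with AngII in Cy5 the lower pair at probe 1 and the higher pair at probe 2. Only 5.57% and 5.08% of tested probes had a lower ratio. With Agilent's processed signals in place of the signals used here, the dim probe had -1.26.

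Tgfbr1 encodes the type I receptor, the kinase that phosphorylates SMAD2 and SMAD3. Its brighter probe had log2 ratios of 0.34, 0.49, -0.03 and -0.14 and its other probe -0.17, -0.22, 0.30 and 0.21. Each probe thus had one sign with AngII in Cy5 and the other sign with AngII in Cy3, and the probes were opposite to each other. The brighter probe passed in limma (mean 0.17, adjusted p = 6.23e-05) but not with the replicate block (adjusted p = 0.403), and the other did not pass (0.03, adjusted p = 0.459). No direction is given for Tgfbr1 on that account. The brightest probes of the receptors differed within each array, Tgfbr1 being above Tgfbr2 in log2 ratio by 0.24 to 1.31.

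Among the latent-binding proteins, Ltbp2 had the largest change of the 10 genes, 2.59-fold higher under AngII. Latent TGF-beta binding proteins are large fibrillin-like matrix glycoproteins. LTBP2 is the member that does not bind latent TGF-beta itself and is known as a component of elastic fibres and microfibrils. AngII intensities of its probe were 8.01, 7.92, 8.0 and 7.95, and media intensities 6.75, 6.75, 6.43 and 6.47. The AngII values were almost level over the arrays and more than 1 log2 unit above each media value. The log2 ratios were 1.25, 1.17, 1.57 and 1.49, with a mean of 1.37 (SE 0.04, limma adjusted p = 2.35e-30), and 99.7% of all tested probes had a lower ratio. Its media signal was dim, though flagged well above background on all 4 arrays, so the size of the fold rests on a low signal. That size depended on the signals used: it was 2.54 with Agilent's processed signals and 1.63 in the authors' deposited table. The lowest value of any setting was 1.21, with AngII in Cy5 alone.

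Ltbp1, which does tether latent TGF-beta to the matrix, lay near background at both probes, with mean log2 intensities of 6.44 and 6.25. Its brighter probe had log2 ratios of 0.13, 0.06, -0.11 and -0.01 and did not pass (mean 0.02, limma adjusted p = 0.661). The dimmer probe had 0.07, 0.26, 0.34 and 0.16, with a mean of 0.21 (limma adjusted p = 1.36e-06), and did not pass with the replicate block (adjusted p = 0.0991). In media it was well above background on 2 of the 4 arrays only, and with processed signals its ratio was 0.93. Ltbp2 exceeded Ltbp1 by 1.11 to 1.68 within each array. The related Ltbp3 and Ltbp4, which also bind latent TGF-beta, had log2 ratios of -0.01 (-0.06 to 0.04 over the 4 arrays, not passing) and 0.52 (0.31 to 0.72, limma adjusted p = 1.12e-16).

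The matrix genes Tgfbi and Thbs1 were read differently by the dye orientations. Tgfbi encodes a secreted adhesion protein named for its induction by TGF-beta, and its probe was the brightest of the 16. AngII intensities were 13.31, 13.36, 13.92 and 13.82 and media intensities 13.25, 13.40, 13.17 and 13.10. The log2 ratios were 0.07, -0.04, 0.74 and 0.72: near 0 on both arrays with AngII in Cy5 and about equal to each other, and far from 0, on the arrays with AngII in Cy3. The mean of 0.37 passed in limma (adjusted p = 2.55e-12), where the orientations are averaged before the error is taken, but not with the replicate block (adjusted p = 0.175). The orientations differed at an adjusted p of 2.02e-05 in limma.

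Thbs1 encodes thrombospondin 1, a matrix glycoprotein that can release TGF-beta from its latent complex. Its brightest probe had log2 ratios of -0.18, -0.21, 0.35 and 0.31, its second -0.26, -0.03, 0.23 and 0.10, and the dimmest -0.36, -0.35, 0.05 and 0.09. All 3 probes were below 0 with AngII in Cy5 and above 0 with AngII in Cy3. Their means were 0.07, 0.01 and -0.14, of which only the last passed in limma (adjusted p = 0.000466) and lost the call with the replicate block (adjusted p = 0.404). In AngII RNA that probe cleared background on 3 of 4 arrays, and with processed signals it had -0.59. The data thus give Thbs1 no direction, and a p above the threshold does not show that it was equal. Of the other thrombospondins, Thbs2 and Thbs3 were tested and did not pass, at 0.01 and 0.04, and Thbs4 and Comp were not well above background.

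**Figure D3:**
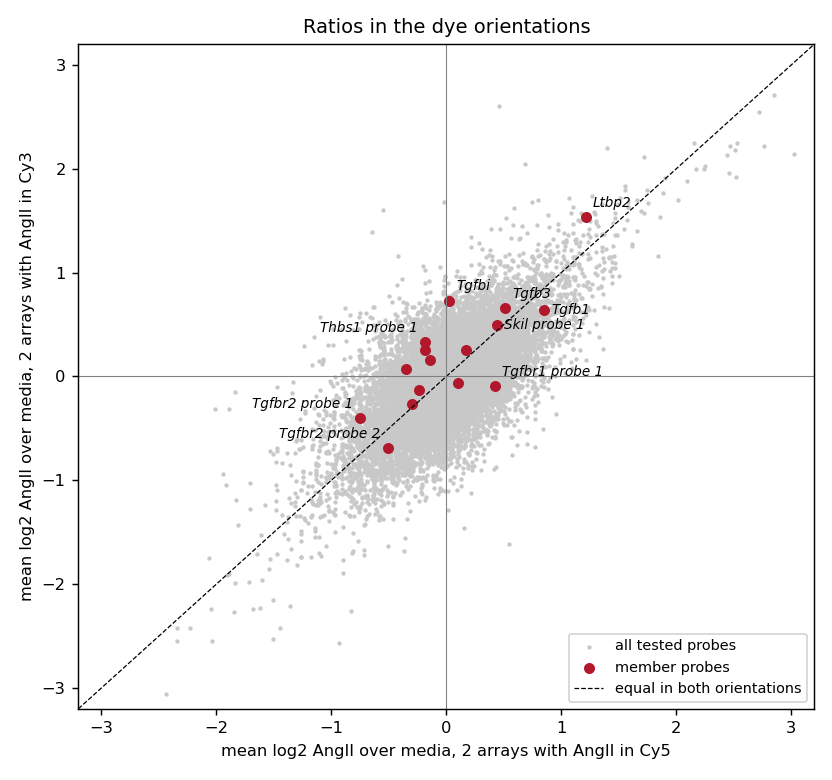
Mean log2 ratio of AngII over media on the 2 arrays with AngII in Cy5 (horizontal axis) against that on the 2 arrays with AngII in Cy3 (vertical axis), for all tested probes (grey) and the 16 member probes (red); the dashed line marks equal values. Ltbp2, Tgfb1, Tgfb3 and Skil probe 1 lie in the upper right and the Tgfbr2 probes in the lower left, while Tgfbi lies beside the vertical axis and Thbs1 and Tgfbr1 lie where the orientations have opposite signs.

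Opposite signs on all 4 arrays by orientation were found at 6 of the 16 member probes (2 of Tgfbr1, 1 of Ltbp1 and 3 of Thbs1), against 21.8% of all tested probes. By limma's adjusted p, 10 of 16 member probes differed between orientations, against 55.4% of all. AngII and media intensities did not overlap over the 4 arrays at 6 member probes (Tgfb1, Tgfb3, both of Tgfbr2, Ltbp2 and the brighter of Skil), against 32.1% of all.

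Skil encodes SnoN, a SMAD corepressor whose transcript TGF-beta induces as feedback. Its brighter probe had AngII intensities of 8.34, 8.28, 8.39 and 8.11 and media intensities of 7.91, 7.82, 7.93 and 7.58. All AngII values were above all media values. The log2 ratios were 0.42, 0.46, 0.46 and 0.52, the most even of the probes that were higher, with a mean of 0.47, a fold of 1.38 (SE 0.04, limma adjusted p = 3.67e-15). The orientations did not differ past the threshold (limma adjusted p = 0.502). The second probe, dim at a mean log2 intensity of 6.37, went the other way with -0.35, -0.13, -0.10 and -0.16 and a mean of -0.18 (limma adjusted p = 1.63e-05, and 0.124 with the replicate block), or -0.65 with processed signals. The probes of Skil therefore disagreed, the brighter of them alone passing in both fits.

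The authors' deposited table gives calls in the same direction as the limma fit for every member probe that passed here. It calls all 10 rows of Tgfb1 higher, with log2 ratios of 0.78 to 0.92, and has 0.58 for Tgfb3 and -0.33 for Tgfb2. For Tgfbr2 the authors' deposited table has -0.60 and -0.72, and it leaves the same 4 probes uncalled, 1 each of Tgfbr1 and Ltbp1 and 2 of Thbs1. It calls 38.9% of its 43379 rows.

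Around the 10 genes, lists of other TGF-beta pathway genes were counted in the same way. The shares to set beside every list and marker count are those over all features. There 39.0% were higher, 38.0% lower, and 30.7% passed with the replicate block. Among SMADs and their regulators 17 of 25 tested genes were lower, 4 were higher and 4 did not pass. The 21 that passed were 84% of the list, near the 77.0% of all features. Their median log2 ratio was -0.15, against 1.8e-05 for all features. With the replicate block 7 of the 25 were lower and 2 higher, against 30.7% of all features passing in either direction. On the log2 scale the receptor-activated Smad3 had -0.54 (arrays from -0.63 to -0.39, other probe -0.27) and the shared partner Smad4 -0.50 (-0.74 to -0.27, other probe -0.46). Smad2 had -0.20 (-0.41 to -0.06) and lost its call with the replicate block (adjusted p = 0.147). Smad1, which carries BMP signals, had -0.71 (-0.90 to -0.55), with -0.05 at its other probe, and Hgs, an endosomal sorting protein that helps present SMADs to the receptor, -0.66 (-0.95 to -0.38). Higher were the inhibitory Smad6, at 0.64 (0.53 to 0.74), and Ldlrad4, a membrane inhibitor of SMAD2 and SMAD3 phosphorylation, at 1.07 (0.90 to 1.24). The inhibitory Smad7 missed the filter on dim probes. Pmepa1, another inhibitor and target, had -0.26 (-0.44 to -0.07), with 0.07 at its other probe and an adjusted p of 0.102 with the replicate block.

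Genes that store and release latent TGF-beta split, 9 higher and 8 lower of 19 tested, with a median of 0.06. Tgm2, the transglutaminase that cross-links latent complexes into matrix, was 1.99-fold higher (0.93 to 1.09 on the log2 scale over the arrays). Itgav, the integrin chain of the receptors that pull TGF-beta free, was 1.55-fold higher (0.59 to 0.66). The gelatinase gene Mmp9 was 1.80-fold higher (0.74 to 0.97, other probe 0.77), but it was dim, with a mean log2 intensity of 6.72. Fbn2, a fibrillin of embryonic microfibrils, was 2.33-fold lower (-1.37 to -1.12) and the plasminogen activator gene Plau 1.98-fold lower (-1.45 to -0.58). Furin, the protease that cuts the ligand from its propeptide, had -0.12 with arrays from -0.34 to 0.12 and an adjusted p of 0.477 with the replicate block. Itgb6, partner of Itgav in epithelium, had -0.22 (-0.41 to -0.08), with 0.39 at its other probe. Itgb8 was not analysed here. With the replicate block 5 of the 19 were higher and 4 lower.

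Of 10 tested binding proteins and co-receptors 5 were higher, 0 were lower and 5 did not pass; the median was 0.07, and 2 were higher with the replicate block. Htra1, a secreted protease that cleaves matrix and TGF-beta family proteins, was 2.03-fold higher, its 4 arrays spreading widely (0.48 to 1.56). That spread lay between the dye orientations, with a mean log2 ratio of 0.52 with AngII in Cy5 and 1.52 with AngII in Cy3. Cd109, a membrane protein that binds TGF-beta and dampens its signal, was 1.74-fold higher (0.68 to 0.99). Tgfbr3, which encodes betaglycan, had -0.01 (-0.19 to 0.10) and did not pass; it was dim, with a mean log2 intensity of 6.33. In the activin and nodal list 3 of 8 tested genes were higher and 3 lower (1 and 2 with the replicate block), with a median of -0.03. Acvr2b, a type II activin receptor gene, was 2.63-fold lower (-1.44 to -1.35) and Gdf15, a distant family member, 1.80-fold lower (-0.88 to -0.83).

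**Figure D4:**
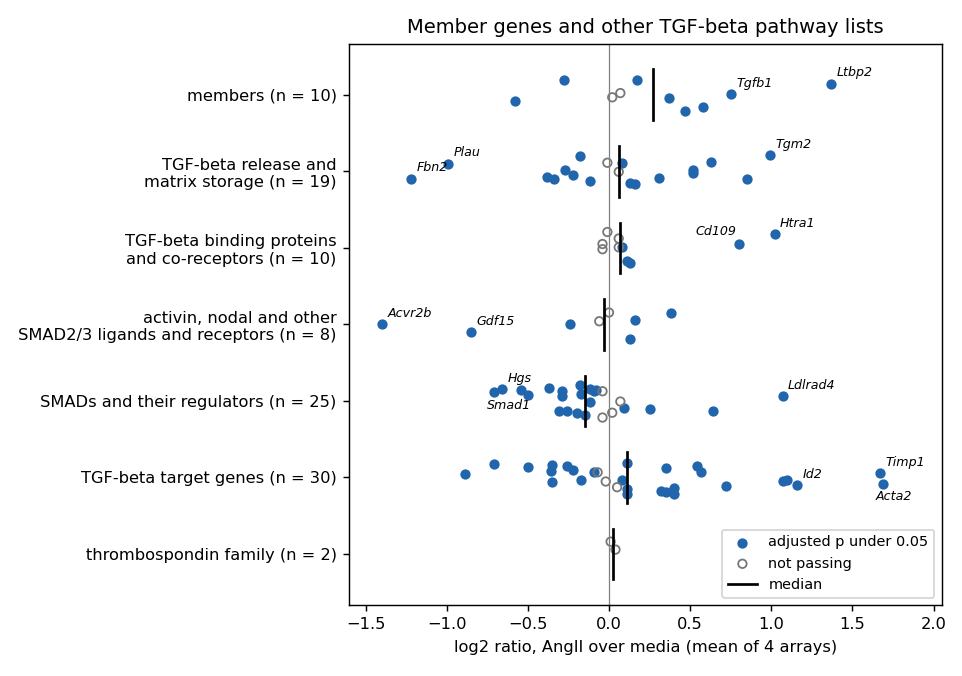
Log2 ratio of AngII over media (horizontal axis) for the members and for each list of other TGF-beta pathway genes, 1 point per gene by its brightest probe, spread vertically only to separate them; filled points passed the test and black bars are medians. The SMAD list lies mostly left of 0, with a median of -0.15. The list of binding proteins and co-receptors lies near 0 or to the right, and the thrombospondin list near 0. The remaining lists spread to both sides.

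Known targets of TGF-beta split, with 17 higher, 10 lower and 3 not passing of 30 tested and a median of 0.11. The list also holds genes that TGF-beta can lower, such as Id2 and Id3. The counts therefore give no direction of response to TGF-beta. In this list 12 were higher and 5 lower with the replicate block. The smooth muscle actin gene Acta2 was 3.24-fold higher (log2 ratio 1.53 to 1.92, other probes 0.65 to 1.03) and the protease inhibitor gene Timp1 3.18-fold higher (1.52 to 1.81, other probe 0.94). Id2 and Id3, inhibitors of bHLH factors that BMP signals raise and TGF-beta can lower, were 2.24-fold and 2.15-fold higher. Sphk1, a sphingosine kinase gene, was 2.11-fold higher, with 0.33 at its other probe, and the transcription factor gene Snai2 1.65-fold higher. Ccn1, a matricellular gene shared with YAP, was 1.85-fold lower (-0.98 to -0.79).

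Several of these genes are also markers of stroma. Of 14 stromal markers, all tested, 7 were higher, 4 lower and 3 did not pass. With the replicate block 4 were higher and 1 lower. Their median was 0.09, and their summed normalised intensity ran from 82900 to 90500 in the AngII channels and from 79400 to 94800 in the media channels. The 7 higher were Acta2, Cspg4 (1.07, other probe 0.66), Tcf21, Col1a1 and Postn (0.40 each), Pdgfrb (0.23) and Col3a1 (0.11). Col1a1 had 0.07 to 0.08 at its other probes. The 4 lower were Tagln (-0.36, other probe 0.19), Des (-0.20), Col1a2 (-0.09) and the stromal factor gene Foxd1 (-0.16). For Foxd1 the arrays ran from -0.47 to 0.14 (limma adjusted p = 0.474 with the replicate block). Pdgfra had 0.01 and did not pass. The part of stroma in the ratios of Ltbp2 and Tgfb3 was not tested. Of 15 markers of ureteric epithelium 14 were well above background, Ret being the exception, with 6 higher and 7 lower (4 and 4 with the replicate block) and sums of 248000 to 275000 under AngII and 274000 to 346000 in media. These sums are led by the brightest probes, Krt18 and Krt8, at mean log2 intensities of 17.02 and 16.63. Cdh1 and Pax2 were dim, at 6.49 and 6.59. Markers of the labelled tissue were thus read beside those of stroma, and other cell types were read too. All 9 listed markers of nephron progenitors and mesenchyme were tested, 3 higher and 5 lower (1 and 3 with the replicate block). Of 10 endothelial markers 9 were tested, 1 higher and 6 lower, but 1 and 1 with the replicate block.

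**Figure D5:**
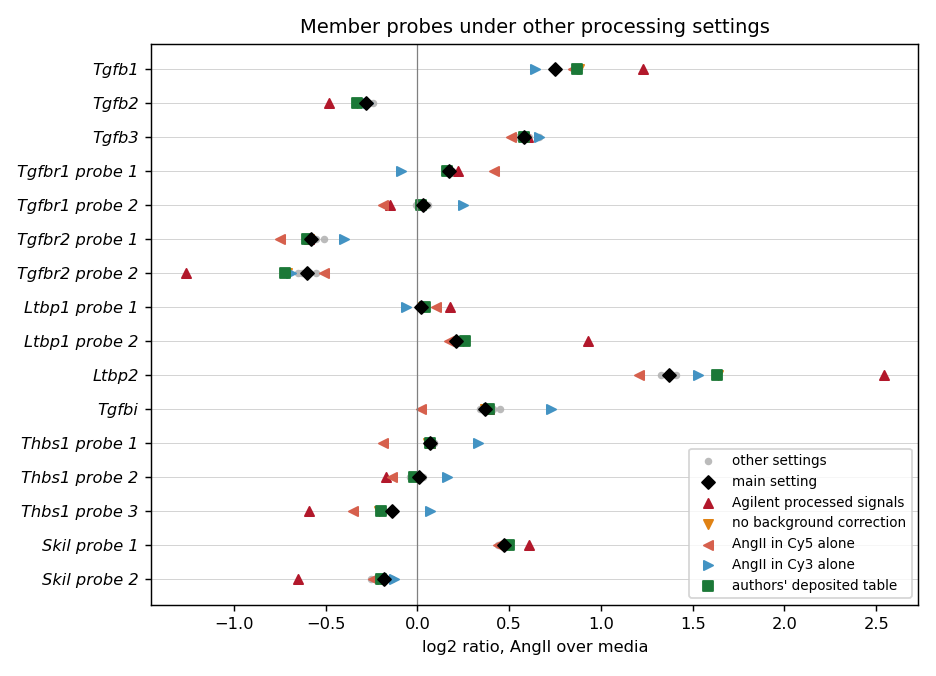
Log2 ratio of AngII over media (horizontal axis) of each member probe in the setting reported here (black diamonds) and under other processing settings (coloured and grey points). Ltbp2, Tgfb1, Tgfb2, Tgfb3, both Tgfbr2 probes and both Skil probes stay on one side of 0 in every setting drawn, Ltbp2 spreads from 1.21 to 2.54, and Thbs1 and Tgfbr1 cross 0.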

How the data were processed

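Two-colour Agilent arrays of mouse ureteric bud RNA were used, labelled from 300 ng of total RNA with an oligo-dT type primer, per the labels' protocols. Of the deposited intensity columns, the median pixel values for the spot and the background around it were used, with Agilent's processed intensity as an alternative; per the file headers, Feature Extraction 10.5.1.1 made them. The deposited scanner files also hold a log10 ratio of red over green, not used here. The authors' deposited table gives for each spot a log2 ratio, an adjusted p-value and a score for its call (-1, 0 or 1); the submitters' processing notes name limma, with no version, and how the table was normalised is not given in the sources used here. Its log2 ratios correlated at 0.995 with those computed here, so its direction is AngII over media.

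Ratios were made in R 4.3.3 with limma 3.58.1: normexp background correction with an offset of 50, loess within arrays (weight 0 for control spots), removal of spots with outlier flags, spots of a probe averaged, and arrays with AngII in Cy3 turned. Arrays of a replicate number hold the same 2 RNAs, as the labels say, so they were averaged and the 2 ratios tested against 0 with lmFit and eBayes, with Benjamini-Hochberg adjustment. A probe was tested if well above background in the AngII or the media channel of all 4 arrays. Channel intensities were made comparable between arrays with Aquantile. The replicate block fit uses the 4 arrays with the number as a fixed effect. Probes were named by accession without version through RefSeq (GRCm38.p6), which named 25097 of 41174; the array annotation is of mm9, so no probe is given coordinates, and those of the promoter windows come from the RefSeq table alone. Named genes are the members, 12 pathway genes fixed by name (1 of them is not reported here), and list genes that passed, differed at least 1.5-fold and had 1 sign on all 4 arrays; marker genes named outside this rule were chosen after their values were seen. The members and lists were chosen with earlier results of these data known.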

Additional observations from a re-analysis of the deposited data

Results flagged for a closer look

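At 6 member probes both arrays with AngII in Cy5 had one sign and both arrays with AngII in Cy3 the other, as did 21.8% of all tested probes. The difference itself, Cy5 mean minus Cy3 mean in log2 ratio, was tested with a dye term in limma. It was 0.51 (adjusted p = 0.000305) at the brighter and -0.45 (adjusted p = 0.000266) at the dimmer probe of Tgfbr1. For Thbs1 it was -0.52, -0.31 and -0.43 from the brightest probe to the dimmest (adjusted p = 8.03e-05, 0.0112 and 0.000251). At the brighter probe of Ltbp1 it was 0.16 and did not pass (adjusted p = 0.0623). The orientations hold the same RNAs with the dyes swapped.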

How the results depend on the processing

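The counts of members higher (4 to 7) and lower (2 or 3) stayed within 1.5 times those reported in every setting run with a test. Members at least 1.5-fold numbered 2, but 5 with processed signals, 4 with AngII in Cy3 alone, and 3 without replicate 1, without replicate 2, with no background correction, with median centring, with AngII in Cy5 alone, in the authors' deposited table and by the mean of a gene's probes. With the replicate block 5759 of 19393 probes passed in place of 14784; the pairing of arrays by number comes from the labels, and the cause was not tested. Among values of single probes or genes under each setting, 154 kept their direction and call, 6 lost and 5 gained the call, and 13 changed sign; without a replicate number, where no test can be made, 30 kept their direction and 2 changed sign. All changes of sign were of Thbs1, Tgfbr1 or Ltbp1. The second Thbs1 probe had -0.01 without background correction, -0.17 with processed signals, -0.04 with median centring, -0.14 with AngII in Cy5 alone, -0.01 to 0.03 without replicate 2 or 1 and -0.02 in the authors' deposited table. The dimmer Tgfbr1 probe had -0.15, -0.01 and -0.19 with processed signals, median centring and AngII in Cy5 alone, and 0 to 0.06 without replicate 1 or 2. With AngII in Cy5 alone the brightest Thbs1 probe had -0.19, and with AngII in Cy3 alone the brighter Tgfbr1 probe had -0.09, the brighter Ltbp1 probe -0.06 and the dimmest Thbs1 probe 0.07. The mean over Thbs1 probes was -0.02. Signal over background limits Ltbp1, the size of the Ltbp2 ratio, the dim Skil probe and the dim Thbs1 probes. The 4 arrays of 1 pair of RNA samples limit all.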
